A study of Mus musculus with 9 samples.

Results

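The genes described here encode proteins of the ciliary transition zone and the basal body. They were chosen by name: 29 gene symbols were listed, and a row of the count table belonged to the set when GENCODE release M21 gave its Ensembl identifier one of these symbols. Of the 29 genes, 28 had a row among the 57180 identifiers of the table, and Tctn2 was not analysed here. After a filter on low counts, 26 of them stood among 13405 tested genes, while Ahi1 and Nphp4 did not pass. Messenger RNA was sequenced from Lgr5-GFP+ intestinal stem cells, dividing cells at the bottom of the crypts of the mouse small intestine that were sorted by flow cytometry. The KO mice carried Lgr5-EGFP-CreERT2, which drives GFP and a tamoxifen-inducible Cre recombinase from the Lgr5 locus, and loxP-flanked Kansl1 alleles (Kansl1 f/f). KANSL1 is a scaffold subunit of the NSL histone acetyltransferase complex. The KO day 4 group (3 libraries) received tamoxifen daily for 4 days, the KO day 3 group (3 libraries) for 3 days, and the control group (3 libraries, genotype given as KANSL1-WT) received corn oil. The sources used here do not give ages, do not say whether the libraries of a group came from separate mice, and do not say whether the controls carried the loxP-flanked alleles. Gene loss and tamoxifen went together in every comparison with the controls and cannot be told apart, and neither can days of tamoxifen and time since the start of deletion.

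A primary cilium is a microtubule-based antenna that grows from a basal body, a centriole docked at the cell membrane through its distal appendages. Just above the basal body lies the transition zone, a gate built from the MKS and NPHP protein modules that controls which membrane and soluble proteins enter the cilium, and mutations in its genes cause Meckel, Joubert and nephronophthisis syndromes in humans. In the gut, primary cilia are best known from stromal cells, whereas the same centriolar proteins are present in any cell with centrosomes.

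Several features of the libraries bear on every value. Totals were 11174583 to 16943055 counts at KO day 4, 8400458 to 21484679 at KO day 3 and 12164479 to 17913787 in controls. Transcripts of the mitochondrial genome took 66.86 to 72.12% of counts at KO day 4, 18.96 to 32.45% at KO day 3 and 16.43 to 25.84% in controls, which left 3115374 to 5614186 nuclear counts per KO day 4 library. KO day 3 replicate 1 and KO day 4 replicate 3 stood apart from the others of their group, with correlations of log2 CPM to them of 0.895 and 0.899, against 0.967 within the other KO day 3 pair, and of 0.836 and 0.843, against 0.907 within the other KO day 4 pair. Kansl1 itself was at 2.93, 5.09 and 8.96 CPM at KO day 4, 2.81, 2.99 and 2.55 CPM at KO day 3 and 4.46, 11.4 and 9.83 CPM in controls. Every KO day 3 library was below every control library for Kansl1, while KO day 4 replicates 2 and 3 lay within the control range, and whole-gene counts can miss a deletion of single exons. Summed stem cell markers were at 2760 to 7620 CPM of nuclear counts at KO day 4, 12800 to 18400 at KO day 3 and 19000 to 22800 in controls, and Lgr5 was detected in all 9 libraries. Summed mast cell markers were at 416 to 1150 CPM of nuclear counts at KO day 4, 19.3 to 180 at KO day 3 and 0.1 to 0.376 in controls. Leukocyte markers summed to 57.2 to 158 at KO day 4, 6.03 to 36.3 at KO day 3 and 1.6 to 4.59 in controls. Stromal markers summed to 27.7 to 48.5 at KO day 4, 6.66 to 14 at KO day 3 and 2 to 5.8 in controls, with Pdgfra at 0 in all 9 libraries. Of the 7 stromal markers, 1 passed the filter on low counts. In KO day 4 replicate 2 and control replicate 3, Col1a1, Col1a2, Dcn and Lum were also at 0, which left Col3a1 and Vim. A gain of stromal cells cannot be read from this sum. Tuft cell markers were at 121 to 324 at KO day 4, 12.4 to 23.5 at KO day 3 and 7.9 to 9.64 in controls. Paneth cell markers were at 108000 to 133000 at KO day 4, 30900 to 48200 at KO day 3 and 18700 to 46000 in controls, and epithelial markers at 4340 to 4800 at KO day 4, 5260 to 5900 at KO day 3 and 6130 to 6590 in controls. Their part in the results below was not tested, and in bulk RNA fewer cells of a type and less RNA per cell cannot be told apart. Markers of multiciliated cells, which carry many motile cilia, summed to 7.41 to 15.1 CPM at KO day 4, 5.8 to 6.57 at KO day 3 and 5.8 to 23.9 in controls. Of their 8 markers in the table, Tekt1 and Cfap43 were at 0 in all 9 libraries, and Foxj1, the master regulator of motile cilia, was at 0 in all but control replicate 3.

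Promoter sequences are shown for 5 of the 10 genes whose values are given in full below, those whose window from 250 bases before to 50 bases after the RefSeq start (GRCm38.p6) holds GTTGCC, a core sequence bound by RFX factors, which drive ciliary genes in animals. Capitals mark GTTGCC or its reverse complement, and each sequence reads along its gene's own strand. The windows are chr11:87852965-87853264 on the plus strand for Mks1, chr11:61504894-61505193 on the plus strand for B9d1, chr5:122264411-122264710 on the minus strand for Tctn1, chr19:40612182-40612481 on the minus strand for Tctn3 and chr9:45828614-45828913 on the minus strand for Cep164.
Mks1: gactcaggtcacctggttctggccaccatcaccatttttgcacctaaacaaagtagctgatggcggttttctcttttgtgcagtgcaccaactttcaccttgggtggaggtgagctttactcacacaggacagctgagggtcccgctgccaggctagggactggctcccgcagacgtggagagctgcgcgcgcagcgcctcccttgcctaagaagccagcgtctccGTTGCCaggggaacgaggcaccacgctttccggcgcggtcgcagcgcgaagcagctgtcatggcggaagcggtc
B9d1: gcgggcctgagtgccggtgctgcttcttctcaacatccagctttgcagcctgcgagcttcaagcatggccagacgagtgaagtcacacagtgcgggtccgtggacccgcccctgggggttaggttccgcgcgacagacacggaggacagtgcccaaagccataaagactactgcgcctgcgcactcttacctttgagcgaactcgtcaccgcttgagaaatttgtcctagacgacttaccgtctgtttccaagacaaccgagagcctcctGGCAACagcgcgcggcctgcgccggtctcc
Tctn1: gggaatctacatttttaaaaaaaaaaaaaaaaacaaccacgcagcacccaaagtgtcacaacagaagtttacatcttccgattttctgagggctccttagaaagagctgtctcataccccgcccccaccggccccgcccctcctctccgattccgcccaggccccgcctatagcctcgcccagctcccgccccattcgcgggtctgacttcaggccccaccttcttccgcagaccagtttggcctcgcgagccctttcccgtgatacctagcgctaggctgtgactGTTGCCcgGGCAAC
Tctn3: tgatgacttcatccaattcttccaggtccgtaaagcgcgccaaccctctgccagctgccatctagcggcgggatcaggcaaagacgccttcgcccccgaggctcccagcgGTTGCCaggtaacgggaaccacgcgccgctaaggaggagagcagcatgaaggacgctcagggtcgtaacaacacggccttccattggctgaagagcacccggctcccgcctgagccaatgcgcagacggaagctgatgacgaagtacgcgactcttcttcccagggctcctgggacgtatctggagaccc
Cep164: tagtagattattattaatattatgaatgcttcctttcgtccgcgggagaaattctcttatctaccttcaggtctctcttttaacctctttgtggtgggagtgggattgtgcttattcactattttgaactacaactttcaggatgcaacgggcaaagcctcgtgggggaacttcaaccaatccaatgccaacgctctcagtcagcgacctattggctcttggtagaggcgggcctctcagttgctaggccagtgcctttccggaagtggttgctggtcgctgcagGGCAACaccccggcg
Of the 27 listed genes with a promoter in the RefSeq table (none was found there for Tmem67 and Pcm1), 10 (37%) held GTTGCC on either strand, against 12.7% of all 27025 promoters and 12.4% of the promoters of tested genes. These were Ahi1, Arl13b, B9d1, B9d2, Cep164, Mks1, Tctn1, Tctn2, Tctn3 and Tmem231. Ahi1 and Tctn2 were not among the tested genes, nor was Nphp4, which held no match. The listed genes and the tested genes are thus unlike sets in each such comparison. In Mks1 the match began at position -24 on the gene's strand, counted from 0 at the start base, and in Tctn3 at -140. The matches of B9d1, at 20, and of Cep164, at 35, lay on the other strand, and Tctn1 held one on each strand, at 36 and 44. The other motifs were also searched on both strands. CCAAT was in 59.3% of the listed genes' promoters and 37.9% of all, CCGGAA (ETS factors) in 29.6% and 15.2%, ACTACA (within the site of the Ronin factor THAP11) in 18.5% and 10.7%, GCGCNTGC (NRF1) in 14.8% and 9.89%, ATGGCG (YY1 core) in 7.41% and 9.24%, and TATAAA in 3.7% and 14.2%. Among promoters of tested genes only, CCAAT was in 39.2%, CCGGAA in 29.8%, ACTACA in 10.8%, GCGCNTGC in 19.7%, ATGGCG in 16.3% and TATAAA in 7.24%. A match describes the letters and does not show that a factor binds.

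In controls these were genes of low expression. Ranked by TPM, a relative level scaled for exon length, the median of the 28 genes was 2.49 TPM. Tmem107, which encodes a small membrane protein of the transition zone, was highest, at 18.1 ± 2.11 TPM (SD, n = 3). The B9-domain proteins of the MKS complex followed, B9d1 at 9.82 ± 2.34 and B9d2 at 7.69 ± 0.68 TPM, and then the transmembrane protein gene Tmem216 at 7.14 ± 0.622 TPM. At the low end, Cep290, whose protein links the microtubules of the transition zone to the membrane, was at 0.365 ± 0.0641 TPM, and the Joubert syndrome gene Ahi1 and the NPHP module gene Nphp4 were at 0.0964 ± 0.0955 and 0.0503 ± 0.0479 TPM. Of the 27 pairs of neighbours in this order, 23 overlapped in their control ranges. The 4 pairs that did not overlap were Tmem107 and B9d1, Tmem216 and Pcm1, Tmem67 and Tctn1, and Cep290 and Ahi1.

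Levels between groups are given as CPM, counts relative to library sizes scaled by TMM, a normalization that sets the bulk of genes equal between libraries. Summed over the 28 genes, the level was 50.6, 61.7 and 62.9 CPM in the KO day 4 libraries, 48.5, 67.1 and 61.2 CPM in the KO day 3 libraries and 103.7, 104.6 and 102.6 CPM in the control libraries. All 6 KO libraries were below all 3 controls, and the KO times overlapped. Without Pcm1 and Cep83, the pair with the highest CPM, the sums were 32.6, 46.9 and 42.8 CPM at KO day 4, 42.7, 49.1 and 40.1 CPM at KO day 3 and 88, 85 and 85 CPM in controls. The sums rest on 281 to 432 counts per KO day 4 library, 569 to 1726 per KO day 3 library and 2285 to 3165 per control library. Of the 26 tested genes, 5, 2 and 8 had no read in KO day 4 replicates 1, 2 and 3, 6 had none in KO day 3 replicate 1, and none was at 0 in the other KO day 3 libraries or in controls. Over all tested genes, 3.21, 4.24 and 9.85% were at 0 in the KO day 4 libraries, 5.99, 0.515 and 0.485% in the KO day 3 libraries and 0.843 to 0.955% in the controls.

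**Figure D1:**
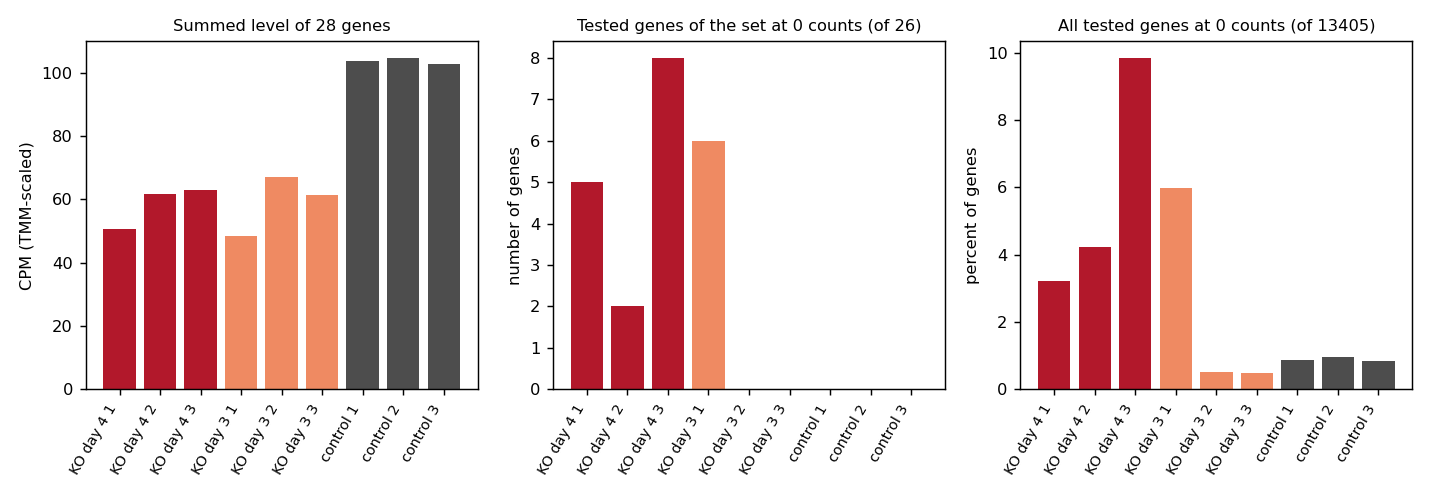
For each of the 9 libraries, the left panel shows the summed level of the 28 genes (TMM-scaled CPM), the middle panel the number of the 26 tested genes of the set with no read, and the right panel the percent of all 13405 tested genes with no read. The summed level is below 70 CPM in every KO library and above 100 CPM in every control, and KO day 4 replicate 3 and KO day 3 replicate 1 hold the most genes at 0.

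Among the MKS module genes, Mks1 was the one that passed the test at KO day 4. Mks1 (ENSMUSG00000034121, chr11:87853215-87863803, plus strand), whose B9-domain protein names the module and is mutated in Meckel syndrome, had 0, 0 and 0 CPM in the KO day 4 libraries, 1.02, 1.21 and 0.532 CPM in the KO day 3 libraries and 3.65, 3.24 and 3.14 CPM in the controls. These values stand for 0, 0 and 0 counts at KO day 4, 12, 28 and 15 counts at KO day 3 and 94, 98 and 70 counts in controls. The 3 groups did not overlap, with KO day 4 lowest and controls highest. At the control level, 28.5, 21 and 14.9 counts would have been read in the KO day 4 libraries. A floor of 3 counts over that group put Mks1 21.5-fold lower than in controls. This floor allows for counting noise alone, and libraries of a group differed by more, so 21.5-fold is no firm lower bound. It fell at KO day 4 (fitted log2 fold change -8.90, SE 1.27, adjusted p = 0.0019, edgeR's quasi-likelihood test with Benjamini-Hochberg adjustment over all tested genes; with every KO day 4 count at 0, the fitted value is no bound). At KO day 3 its log2 fold change of -1.86 (SE 0.59) gave an adjusted p of 0.17 in the same edgeR test.

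B9d1 (ENSMUSG00000001039, chr11:61505144-61512931, plus strand), the B9-domain partner of Mks1, had 0.234, 2.7 and 0 CPM at KO day 4, 0, 0.997 and 0.638 CPM at KO day 3 and 4.5, 5.58 and 4.13 CPM in controls. All KO libraries were below all controls, and KO day 4 replicate 2 was the highest of the KO libraries. Its log2 fold changes of -2.24 (SE 1.07) at KO day 4 and -3.02 (SE 1.04) at KO day 3 did not pass edgeR's test, with adjusted p of 0.15 and 0.19. The third B9-domain gene, B9d2, stood at 2.92 ± 1.02 CPM at KO day 4, 3.61 ± 1.75 CPM at KO day 3 and 3.43 ± 0.315 CPM in controls (SD, n = 3 each), with overlapping groups.

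Tmem67 (ENSMUSG00000049488, chr4:12039355-12090020, minus strand), which encodes meckelin, a receptor-like membrane protein of the gate, had 0, 0.795 and 0 CPM at KO day 4, 0, 0.13 and 0.603 CPM at KO day 3 and 3.14, 1.65 and 2.51 CPM in controls. No KO library reached the lowest control. The log2 fold changes were -3.16 (SE 1.26, adjusted p = 0.094) at KO day 4 and -3.14 (SE 1.12, adjusted p = 0.21) at KO day 3 in edgeR's test. With the KO times averaged at equal weight and set against controls, Tmem67 fell by edgeR's test (log2 fold change -3.15, SE 0.93, adjusted p = 0.047), although it passed the filter on low counts only through the controls, where it is high. That call was lost without any 1 control, without KO day 3 replicate 2, and without KO day 4 replicate 1 or 3 (adjusted p of 0.055 to 0.16, edgeR). Tmem67 shares 289 exonic bases with the more abundant gene Rbm12b2 on the opposite strand.

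Tmem216 (ENSMUSG00000024667, chr19:10533865-10556238, minus strand), another membrane protein gene of the gate, had 1.88, 2.7 and 4.25 CPM at KO day 4, 0.341, 3.08 and 2.34 CPM at KO day 3 and 7.92, 6.91 and 6.69 CPM in controls. Again every KO library was below every control, with KO day 3 replicate 1 lowest. Its log2 fold changes were -1.31 (SE 0.61, adjusted p = 0.14) at KO day 4 and -1.86 (SE 0.59, adjusted p = 0.16) at KO day 3 in edgeR's test, and for both KO times averaged against controls the adjusted p was 0.053. Tmem216 shares 169 exonic bases with the more abundant gene Cpsf7 on the opposite strand, and the strand setting of the counting is not given.

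The tectonics are secreted or membrane proteins of the same complex, and their genes did not share a pattern over time. Tctn1 (ENSMUSG00000038593, chr5:122237848-122264460, minus strand) had 2.23, 0.954 and 1.57 CPM at KO day 4, 0, 0.303 and 0.354 CPM at KO day 3 and 1.44, 1.35 and 1.3 CPM in controls. KO day 4 overlapped the controls, while all KO day 3 libraries were below both other groups. Hvcn1, on the opposite strand, shares 1574 of its exonic bases and averaged 2.89 counts, against 17.33 for Tctn1. The log2 fold change of Tctn1 was 0.22 (SE 0.78, adjusted p = 0.87) at KO day 4 and -2.48 (SE 0.83, adjusted p = 0.18) at KO day 3 in edgeR's test. Tctn3 (ENSMUSG00000025008, chr19:40596446-40612233, minus strand) had 0.234, 0.636 and 1.12 CPM at KO day 4, 0, 2.38 and 1.31 CPM at KO day 3 and 4.39, 3.24 and 4.13 CPM in controls. Here every KO library was below every control and the KO times overlapped. Its log2 fold changes were -2.65 (SE 1.02, adjusted p = 0.083) at KO day 4 and -1.62 (SE 0.88, adjusted p = 0.40) at KO day 3 in edgeR's test. In KO day 3 replicate 1 the level of controls would have given 46 counts for Tctn3 and 55.6 for B9d1, and both were at 0.

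Cc2d2a (ENSMUSG00000039765, chr5:43662346-43740972, plus strand), a coiled-coil and C2-domain protein of the module, had 1.29, 1.91 and 0 CPM at KO day 4, 1.88, 3.03 and 2.55 CPM at KO day 3 and 3.14, 4.03 and 5.03 CPM in controls. All KO libraries were below all controls, and the KO times overlapped narrowly. The log2 fold changes were -1.85 (SE 0.7, adjusted p = 0.081) at KO day 4 and -0.70 (SE 0.63, adjusted p = 0.66) at KO day 3 in edgeR's test. Tmem107, highest in controls per length, had 4.22, 6.84 and 0 CPM at KO day 4, 5.8, 6.2 and 5.21 CPM at KO day 3 and 8.23, 7.04 and 7.41 CPM in controls. Its KO libraries were all below its controls, and KO day 4 replicate 3 had no read where the control level would have given 33.8.

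Ahi1, whose protein (jouberin) is part of the module, was left untested, with 7, 4 and 10 counts at KO day 4, 0, 0 and 2 counts at KO day 3 and 0, 6 and 8 counts in controls. In CPM, every KO day 4 library (0.636 to 2.24) was above every control (0 to 0.359). Over the 12 tested MKS module genes, the median log2 fold change was -1.57 at KO day 4, where 1 (Mks1, 8.33% of the 12) was called lower and none higher, and -1.67 at KO day 3, where none was called in edgeR's test. Among the 12, Tmem67, Tmem231, Tctn1 and Tctn3 passed the filter only through the controls. Both medians include them and are therefore biased towards a fall. Of all 13405 tested genes, 11.5% were called lower at KO day 4 and 0.298% at KO day 3.

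In the NPHP module, Nphp4 was at 0 in all 3 KO day 4 libraries, at 0, 0.13 and 0 CPM at KO day 3 and at 0, 0.165 and 0.0898 CPM in controls, too low to compare. Rpgrip1l, a scaffold that anchors both modules, had 1.52, 0.477 and 2.24 CPM at KO day 4, 0.938, 0.997 and 0.567 CPM at KO day 3 and 1.44, 2.18 and 2.78 CPM in controls, so that only KO day 3 lay wholly below the controls. Iqcb1 (NPHP5, a calmodulin-binding partner of Cep290) had 1.29, 0 and 1.57 CPM at KO day 4, 0, 1.73 and 1.6 CPM at KO day 3 and 1.63, 2.64 and 2.25 CPM in controls, so that only KO day 4 did. Neither passed edgeR's test in any comparison.

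Of the distal appendage genes, Cep164 fell. Cep164 (ENSMUSG00000043987, chr9:45766946-45828691, minus strand), whose protein docks vesicles at the mother centriole and recruits the kinase TTBK2, had 0.352, 0.954 and 0.224 CPM at KO day 4, 1.28, 0.65 and 1.52 CPM at KO day 3 and 2.45, 3.34 and 4.09 CPM in controls, from 3, 6 and 1 counts at KO day 4, 15, 15 and 43 at KO day 3 and 63, 101 and 91 in controls. Every KO library was below every control. At KO day 4 its log2 fold change was -2.65 (SE 0.68, adjusted p = 0.018) in edgeR's test, and at KO day 3 it was -1.51 (SE 0.59, adjusted p = 0.24). The day 4 call was lost without control replicate 2 (adjusted p = 0.062), control replicate 3 (0.075) or KO day 4 replicate 1 (0.05, just above the threshold) in edgeR's test, and held in 14 of 17 alternatives. For both KO times averaged against controls the adjusted p was 0.023, and it was 0.067 to 0.13 without any 1 control (edgeR).

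The other appendage genes did not pass edgeR's test in any comparison. Cep83, the base of the appendage on which the rest assembles, had 9.38, 8.11 and 10.7 CPM at KO day 4, 2.81, 8.28 and 11 CPM at KO day 3 and 7.07, 9.12 and 8.04 CPM in controls, and its groups overlapped. Sclt1, next in the assembly, averaged 3.19 ± 1.5 CPM at KO day 4, 4.9 ± 0.907 CPM at KO day 3 and 5.06 ± 1.03 CPM in controls (SD, n = 3 each). Cep89 had 4.1, 5.09 and 2.91 CPM at KO day 4, 4.95, 4.12 and 3.08 CPM at KO day 3 and 6.91, 5.88 and 5.34 CPM in controls, with all KO libraries below all controls. Fbf1, which joins the appendages to the membrane, lay below the controls at KO day 3 only, since KO day 4 replicate 3 was at 6.27 CPM against 2.56 to 3.57 CPM in controls. Ttbk2, the kinase that starts cilium assembly, overlapped the controls at both times, and 3409 of its exonic bases are shared with the more abundant Cdan1.

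Ofd1 (ENSMUSG00000040586, chrX:166390033-166440704, minus strand), a distal centriole protein also found in centriolar satellites, had 0.938, 1.75 and 2.91 CPM at KO day 4, 2.73, 3.42 and 3.05 CPM at KO day 3 and 4.74, 4.4 and 3.95 CPM in controls. All KO libraries were below all controls. Its log2 fold changes were -1.27 (SE 0.47, adjusted p = 0.072) at KO day 4 and -0.50 (SE 0.43, adjusted p = 0.63) at KO day 3 in edgeR's test. Pcm1, the scaffold of the satellites, had 8.67, 6.68 and 9.4 CPM at KO day 4, 2.98, 9.71 and 10.1 CPM at KO day 3 and 8.62, 10.4 and 9.57 CPM in controls. Both its KO groups overlapped the controls, and KO day 3 replicate 1 was lowest.

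Genes for the ciliary membrane and its lipid-anchored cargo came next. Inpp5e (ENSMUSG00000026925, chr2:26396249-26409203, minus strand), an inositol phosphatase that sets the lipid makeup of the ciliary membrane, had 2.46, 0.636 and 1.79 CPM at KO day 4, 2.13, 2.38 and 1.56 CPM at KO day 3 and 5.47, 3.14 and 4.13 CPM in controls. No KO library reached the lowest control. The log2 fold changes were -1.36 (SE 0.54, adjusted p = 0.089) at KO day 4 and -1.07 (SE 0.5, adjusted p = 0.33) at KO day 3 in edgeR's test. Inpp5e shares 874 exonic bases with the much more abundant gene Pmpca on the opposite strand, so its level is uncertain. Rpgr, a regulator at the transition zone mutated in retinitis pigmentosa, had 1.17, 4.45 and 0 CPM at KO day 4, 2.47, 3.16 and 2.34 CPM at KO day 3 and 6.29, 5.68 and 5.21 CPM in controls, with all KO libraries below all controls. Arl13b, the membrane GTPase that activates Arl3 and holds Inpp5e in the cilium, and Arl3, which releases lipid-anchored cargo, lay below the controls at KO day 3 only. For Arl3, KO day 4 replicate 3 was at 6.27 CPM, against 2.02 to 2.78 CPM in controls.

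**Figure D2:**
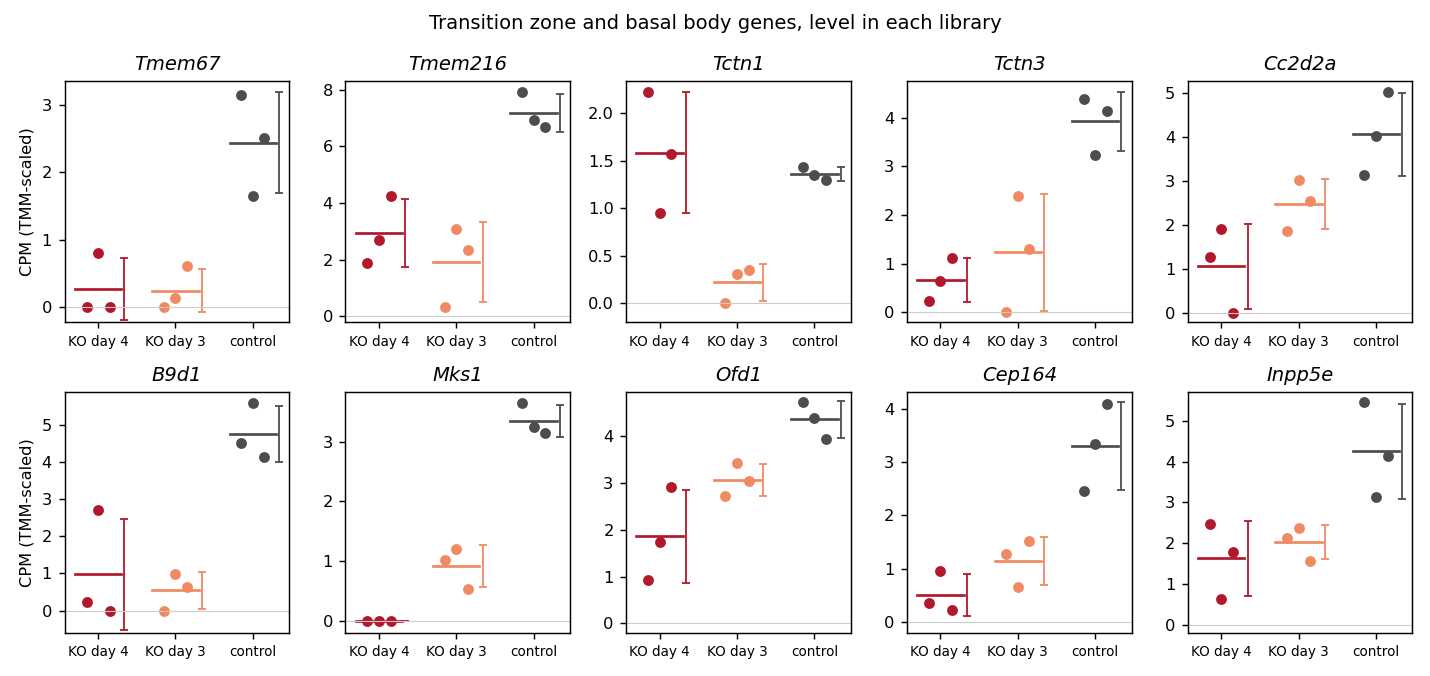
Level (TMM-scaled CPM) of 10 genes in each library at KO day 4, KO day 3 and in controls. Points are libraries, horizontal lines are means and bars are SD (n = 3). Mks1 is at 0 in all KO day 4 libraries, Tctn1 is low at KO day 3 only, and in the other 8 panels every KO library lies below every control. The 10 genes are those with the smallest unadjusted p against controls in edgeR's test, so their separation is not typical of the set. Over the 26 tested genes, 13 had every KO day 4 library below every control, and 18 had every KO day 3 library below.

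Across the set, no tested gene passed edgeR's test at KO day 3 in either direction, against 0.298% of all 13405 tested genes called lower and 0.142% called higher. At an unadjusted p under 0.05, 6 of the 26 (23.1%) were lower and 0 higher, against 8.29% and 7.55% of all genes. DESeq2 called 3 lower (Mks1, Tctn1 and Tmem216), against 3.23% of all genes, limma voom with quality weights called 7 lower, against 7.03%, and neither called any higher. At KO day 4, edgeR called 2 lower (Mks1 and Cep164) and none higher. Those 2 are 7.69% of the 26, against a background of 11.5% called lower and 11.1% called higher. DESeq2 called 7 of 27 lower at KO day 4, against 12.7% of all genes, and voom 7 of 26, against 15.2%. The set's share was thus below the background with edgeR and above it with the other tools. Both sets of 7 hold Tctn3 and Tmem67, which passed the filter on low counts only through the controls. Shares without such genes were not computed for DESeq2 and voom. Neither of those tools called any member higher, and at an unadjusted p under 0.05 in edgeR 7 (26.9%) were lower, against 19.3% of all genes, and 0 higher, against 17.2%. With both KO times averaged against controls, 3 (Mks1, Cep164 and Tmem67) were called lower, 11.5% of the 26, and 0 higher, against 7.21% and 5.59% of all tested genes. Tmem67 is among the genes that passed the filter only through the controls, and without those genes 2 of 21 were called lower, against 6.97% of all genes that passed without them. At an unadjusted p under 0.05, 10 of the 26 (38.5%) were lower, against 16.2% of all genes, and 0 higher, against 13.1%. The counts at an unadjusted p under 0.05 are biased towards a fall, since each includes genes that passed the filter only through the controls. These were Tctn1 and Tmem67 at KO day 3, and Tctn3 and Tmem67 at KO day 4 and for the averaged times. DESeq2's calls at KO day 3 include Tctn1, and voom's include Tctn1 and Tmem67. The KO day 4 count in edgeR moved as single libraries were left out, and percentages in brackets are of all genes called lower. It was 1 of 27 without control replicate 2 (5.43%), and 1 without control replicate 3 (6.16%) or KO day 4 replicate 1 (10.7%). It was 4 of 27 without KO day 3 replicate 1 (13.9%), 4 without KO day 4 replicate 3 (10.3%), and 6 of 27 without KO day 4 replicate 2 (8.29%). Without both libraries that stood apart it was 8 of 26, against 16% of all genes, and at KO day 3 it was 2, against 3.34%. The count for the averaged KO times was 1 without control replicate 1 (1.93%), 2 (1.36%) or 3 (2.02%). It was 6 of 27 without KO day 3 replicate 1 (8.46%) or KO day 4 replicate 2 (5.7%), and 5 without KO day 4 replicate 3 (9.19%).

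Most fitted changes in the set were negative. At KO day 4 the median log2 fold change of the 26 genes was -1.10 and 23 were negative, against a median of -0.06 and 53.1% negative over all tested genes. At KO day 3 the median was -1.02 and 25 were negative, against -0.02 and 51.4%. A minimum mean CPM of 5 left 6 genes of the set, with medians of -0.58 at KO day 4 and -0.39 at KO day 3. All genes tested under that filter had medians of -0.03 and -0.01. The set was not compared with genes of like level. All KO day 4 libraries were below all controls for 13 of the 26 (50%), against 26.4% of all tested genes, and all KO day 3 libraries for 18 (69.2%), against 18%. The 12 genes below the controls at both times were B9d1, Cc2d2a, Cep164, Cep89, Inpp5e, Mks1, Ofd1, Rpgr, Tctn3, Tmem107, Tmem216 and Tmem67. The share of all tested genes below the controls at both times was not computed, so this count cannot be set against a background. Both comparisons share the control libraries. Of the 26, Tmem67, Tmem231, Tctn1, Tctn3 and Ttbk2 passed the filter only through the controls. Over the other 21 genes the median log2 fold change was -0.99 at KO day 4, with 19 negative, and -0.84 at KO day 3, with 20 negative. All 12407 tested genes that did not need the controls to pass had medians of -0.03 at KO day 4 and 0.01 at KO day 3. Among the 21 genes, 11 had every KO day 4 library below the controls, and 14 had every KO day 3 library below them, against 25.5% and 17% of those 12407 genes.

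**Figure D3:**
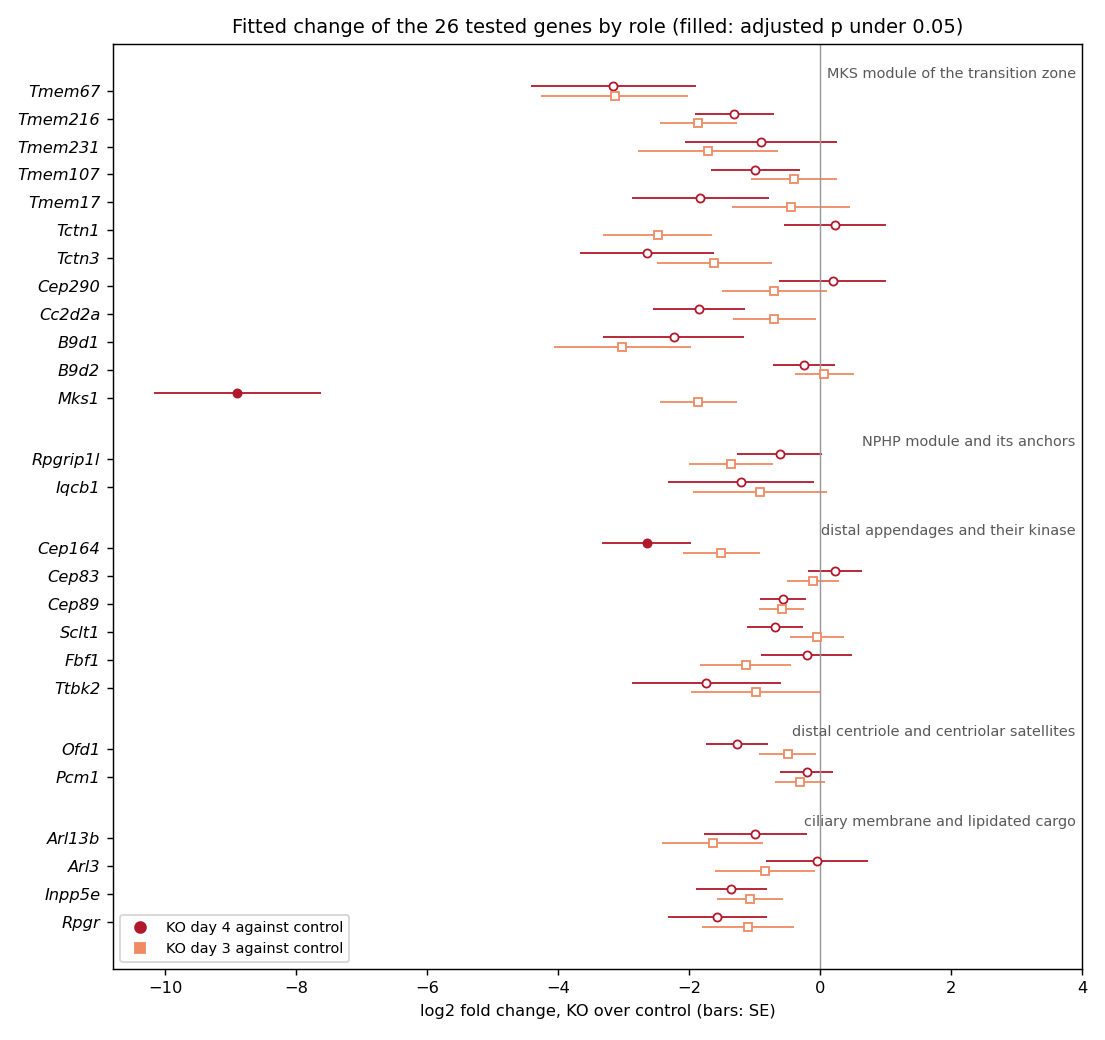
Fitted log2 fold change of the 26 tested genes, KO over control, at KO day 4 and KO day 3, ordered by role; bars are SE from edgeR and filled symbols have an adjusted p under 0.05. Mks1 and Cep164 at KO day 4 are the filled symbols, and 23 of the KO day 4 values and 25 of the KO day 3 values lie below 0.

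Change differed between roles only as a description, and the median of the distal appendage genes includes Ttbk2, which passed the filter only through the controls. Distal appendage genes had median log2 fold changes of -0.63 at KO day 4 and -0.78 at KO day 3 (6 genes), the distal centriole and satellite pair -0.74 at KO day 4 and -0.41 at KO day 3, the tested NPHP pair -0.91 at KO day 4 and -1.14 at KO day 3, and the 4 membrane and cargo genes -1.18 at KO day 4 and -1.09 at KO day 3. Over the 26 genes, Spearman's rho of the log2 fold change with control TPM was -0.07 at KO day 4 and 0.32 at KO day 3, and with exon length 0.23 and -0.13. These correlations are across genes that share libraries, and genes are not independent replicates.

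Between the KO times the set moved little as a whole. The median log2 fold change of KO day 4 over KO day 3 was -0.16, with 14 of 26 negative, against -0.02 and 51.4% over all tested genes. Mks1 was the only gene called, and it was lower at KO day 4 (fitted log2 fold change -7.04, SE 1.43, adjusted p = 0.016, edgeR's quasi-likelihood test), against 6.03% of all tested genes called lower and 6.52% called higher. With 0 counts at KO day 4 and 55 in all at KO day 3, the same floor put it 5.61-fold lower, again allowing for counting noise alone. Mks1 was the only member whose KO day 4 libraries were all below its KO day 3 libraries. Without KO day 3 replicate 2 the adjusted p was 0.051 in edgeR's test. Tctn1 was higher at KO day 4 in every library (log2 fold change 2.70, SE 0.86), with an adjusted p of 0.062 by edgeR and 0.0057 by DESeq2. DESeq2 called 2 of 27 members higher (Ahi1 and Tctn1), against 11.4% of all genes it tested. By edgeR none was called higher, and 1 was higher at an unadjusted p under 0.05, against 14.7% of all tested genes.

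The neighbouring machinery of the cilium was read from lists grouped by textbook roles but chosen with earlier results of these data known. Their shares are therefore a description. The background was 11.5% of all genes called lower and 11.1% called higher at KO day 4, and 0.298% and 0.142% at KO day 3. Of 31 tested intraflagellar transport and motor genes, which carry cargo along the cilium, 11 (35.5%) fell and none rose at KO day 4, and 1 (3.23%) fell and none rose at KO day 3. The day 3 gene was Ift27, a small GTPase of the IFT-B train, with means of 1.53 CPM at KO day 4, 2.07 CPM at KO day 3 and 11.3 CPM in controls and log2 fold changes of -2.81 (adjusted p = 0.0021) and -2.45 (adjusted p = 0.039) at KO day 4 and KO day 3 in edgeR's test. Ift52, Ttc21b and Cluap1, further subunits of the trains, fell at KO day 4 by 1.44, 2.76 and 1.34 on the log2 scale (adjusted p = 0.0026, 0.0057 and 0.0098, edgeR). Of 10 tested BBSome genes, whose complex moves receptors out of the cilium, Bbs2 (log2 fold change -2.17, adjusted p = 0.014) and Bbs9 (-4.56, adjusted p = 0.021) fell at KO day 4 in edgeR's test, 20% of the list, and none rose. Among 16 further transition zone, inversin and CPLANE genes, 3 (18.8%) fell and none rose at KO day 4: Txndc15 (7.74 CPM at KO day 4, 14.5 at KO day 3 and 25 in controls, adjusted p = 0.0081), Tmem237 (0.733 CPM at KO day 4, 1.71 at KO day 3 and 4.58 in controls, adjusted p = 0.0084) and Invs (0.053 CPM at KO day 4, 0.318 at KO day 3 and 1.46 in controls, adjusted p = 0.033), by edgeR. Of these calls, 1 in each list (Ift74, Bbs9 and Invs) was a gene that passed the filter only through the controls, as did 7 of the 31, 5 of the 10 and 5 of the 16 genes. No gene of the BBSome or of the last list was called at KO day 3.

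Of the 6 genes of the shuttle that carries lipid-anchored cargo such as INPP5E, Pde6d fell at KO day 4, with a mean of 0.935 CPM at KO day 4, 3.32 CPM at KO day 3 and 9.88 CPM in controls (log2 fold change -3.39, SE 0.47, adjusted p = 0.00099, edgeR). Among 6 tested Hedgehog genes, Smo, the signal transducer that enters the cilium, was at 20.1 CPM at KO day 4, 31.7 CPM at KO day 3 and 40.3 CPM in controls and fell at KO day 4 (log2 fold change -0.99, SE 0.32, adjusted p = 0.044, edgeR). Lists of centriole and satellite genes did not move one way. At KO day 4, of 23 centriole genes Poc1a fell (-1.48, adjusted p = 0.016, edgeR) and Nin, a subdistal appendage protein, rose (1.73, adjusted p = 0.013, edgeR), and of 8 satellite genes Ssx2ip rose (0.83, adjusted p = 0.03, edgeR). None of 8 cilium disassembly genes and 5 tested ciliary transcription factors was called at KO day 4 or KO day 3. At KO day 4, 1 of each list had an unadjusted p under 0.05 in edgeR's test. Hdac6 was lower (log2 fold change -1.22) and Rfx7 higher (0.49), against 19.3% of all tested genes lower and 17.2% higher at that threshold. Median log2 fold changes at KO day 4 and KO day 3 were -1.54 and -1.07 for transport genes, -1.34 and -1.06 for the BBSome, -0.96 and -0.95 for the further transition zone genes, 0.22 and -0.25 for centriole genes and 0.46 and -0.07 for the transcription factors. The medians of the transport, BBSome and further transition zone lists include genes that passed the filter only through the controls (7 of 31, 5 of 10 and 5 of 16).

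**Figure D4:**
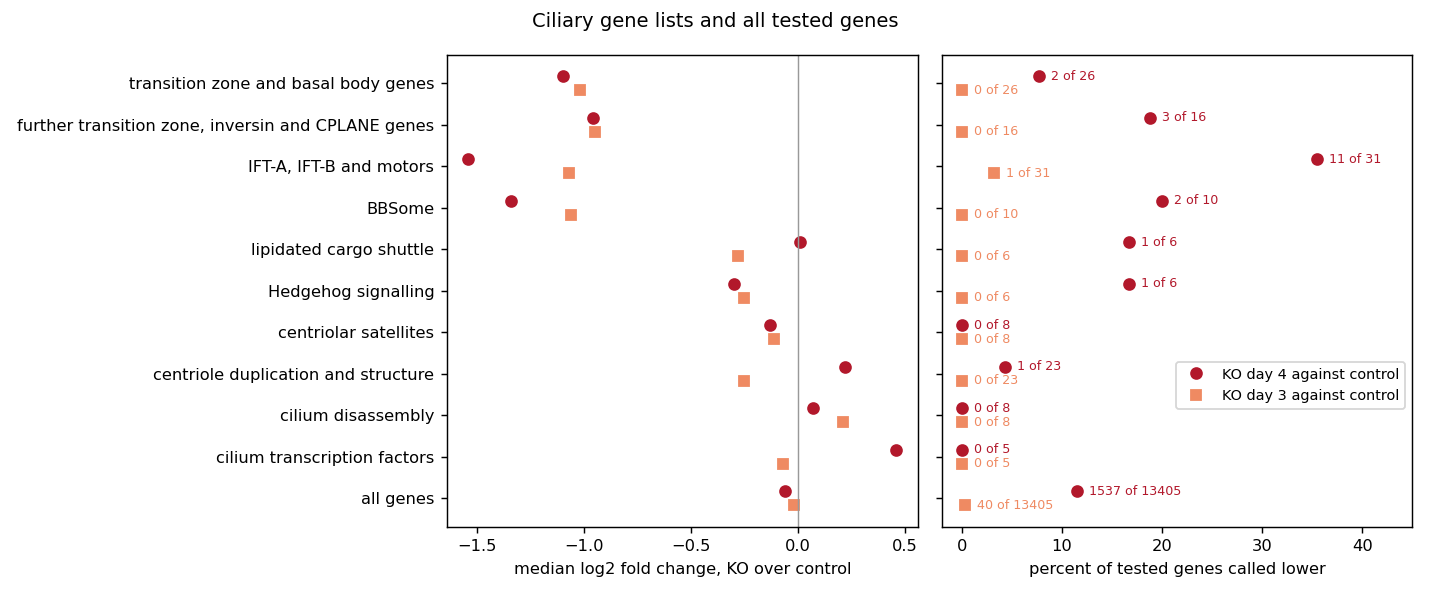
Median log2 fold change, KO over control (left), and percent of tested genes called lower by edgeR (right) at KO day 4 and KO day 3 for the set, for 9 other ciliary or centriolar lists and for all tested genes; numbers beside the points give genes called lower of genes tested. Transport genes show 11 of 31 called lower at KO day 4, against 2 of 26 for the set and 1537 of 13405 for all genes. The set and the transport, BBSome and further transition zone lists include genes that passed the filter only through the controls.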

How the data were processed

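The deposited table holds raw counts for each Ensembl identifier in 9 libraries, not normalized by the authors. HISAT2 2.0.4 and genome build GRCm38 were used, per the submitters' processing notes; how reads were counted, with which annotation and whether by strand, is not given in the sources used here, so reads of overlapping genes cannot be told apart. Of 57180 identifiers, 51933 were named through GENCODE M21, whose coordinates are given. Counts were tested with edgeR 4.0.16 in R 4.3.3: filterByExpr (10 counts in a library, 15 in all), TMM, all 9 libraries in 1 quasi-likelihood fit with group as the only term, Benjamini-Hochberg adjustment over 13405 genes, threshold 0.05. Fits were tested on simulated data. CPM use TMM-scaled library sizes, marker sums use nuclear counts, and TPM use union exon lengths. TMM factors were 0.4 to 0.504 at KO day 4, 1.222 to 1.397 at KO day 3 and 1.44 to 1.833 in controls. Libraries of a group differed by more than counting noise (chi-square over its degrees of freedom 12.8 to 89.2), so each counted as 1 replicate; p-values measure the spread between these libraries, which may be technical.

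Values in every library are given for members past the threshold in any comparison and for the 10 with the smallest unadjusted p against controls; those of Tmem107, Ahi1, Nphp4, Rpgrip1l, Iqcb1, Cep83, Cep89, Pcm1 and Rpgr were added after they were seen. Members and lists were chosen with earlier results of these data known. Alternatives were other size factors (RLE, library size alone), other filters, counts without mitochondrial transcripts, DESeq2 1.42.0, voom in limma 3.58.1, a replicate block and leaving out libraries.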

Additional observations from a re-analysis of the deposited data

Results flagged for a closer look

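Mks1 differed between the KO times by a test of the difference itself: KO day 4 over KO day 3, fitted log2 fold change -7.04, SE 1.43, adjusted p = 0.016, edgeR's quasi-likelihood test. It had 0, 0 and 0 counts at KO day 4 and 12, 28 and 15 counts at KO day 3, lower in 3 of 3 libraries. Over 17 alternatives it passed the threshold in 16, with adjusted p of 0.00016 to 0.051 in edgeR, DESeq2 or voom, the highest without KO day 3 replicate 2.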

How the results depend on the processing

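Mks1 was called lower at KO day 4 in all 17 alternatives that tested it (log2 fold change -9.42 to -5.47, adjusted p = 4.3e-06 to 0.01) and Cep164 in 14 of 17 (adjusted p = 7.3e-05 to 0.075), with edgeR, DESeq2 or voom. The counts of members called lower depended on the processing, and percentages in brackets are of all genes tested. At KO day 4 (2 in the report) the count was 24 with library size alone (80.3%), which moved the median of all genes to -1.95, 5 of 28 without a filter (7.86%), 0 of 6 at a minimum mean CPM of 5 (13.4%), 7 of 27 with DESeq2 (12.7%), 7 with voom (15.2%), 8 without both KO day 3 replicate 1 and KO day 4 replicate 3 (16%), and 1 to 6 leaving out 1 library (5.43 to 13.9%). At KO day 3 (0 in the report) it was 1 with library size alone (3.57%, all-gene median -0.39), 3 with DESeq2 (3.23%), 7 with voom (7.03%) and 2 without both libraries (3.34%). For KO day 4 over KO day 3 (1 in the report) it was 14 with library size alone (69.5%, all-gene median -1.54), 0 of 6 at a minimum mean CPM of 5 (6.66%) and 0 to 2 leaving out 1 library (0 without KO day 3 replicate 2, 2.15%, and 2 without KO day 4 replicate 2, 2.9%), and DESeq2 called 2 higher (11.4%). For the mean of both KO times (3 in the report) it was 25 with library size alone (72.3%, all-gene median -1.16), 6 of 28 without a filter (5%), 1 of 6 at a minimum mean CPM of 5 (8.5%), 8 of 27 with DESeq2 (9.71%), 13 with voom (17.5%), 11 without both libraries (14.6%) and 1 to 6 leaving out 1 (1.36 to 9.19%). Tmem67 passed there in 10 of 17 alternatives (adjusted p = 0.00083 to 0.16, edgeR, DESeq2 or voom). The DESeq2 and voom counts against controls include Tmem67, Tctn1 or Tctn3, which passed the main filter only through the controls. Members below all controls numbered 3 at each time at a minimum mean CPM of 5, and 26 at KO day 4 with library size alone, where the median of all genes was -1.95. Leaving out 1 library gave from 13 to 17 genes at KO day 4 and from 18 to 21 genes at KO day 3. The share of all genes below all controls was not computed under these settings, so these counts cannot be set against a background.

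Some directions turned. Tctn1 at KO day 4 over control was -1.63 with library size alone and, leaving out 1 library, -0.14 (without KO day 4 replicate 1) to 0.48. For KO day 4 over KO day 3, Tmem67 was 0 with RLE factors, 0.05 with DESeq2, 0.21 with the replicate block, and, leaving out 1 library, -5.42 to 1.66, with 1.66 without KO day 3 replicate 3, 0.66 without KO day 4 replicate 1 and 0.39 without KO day 4 replicate 3; Tmem216 was -0.97 with library size alone and -0.26 without both libraries, with at most 1.02 leaving out 1; B9d1 was -0.68 with library size alone and -1.94 (without KO day 4 replicate 2) to 1.42 leaving out 1; and Inpp5e was -0.79 to 0.09 (without KO day 4 replicate 2) leaving out 1. None of these was called in the report; the cause was not tested. With the replicate block 2 members were called lower at KO day 4 (10.1% of all genes) and 2 (B9d1 and Mks1) for the mean of both times (5.44%), where Tmem67 (adjusted p = 0.081) and Cep164 (0.055) did not pass edgeR's test. Same-numbered libraries did not deviate together (correlations -0.06 to 0.11), so the numbers were not taken to pair samples. Depth limits the low genes: at KO day 4 the whole set rests on 281 to 432 counts per library.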

Other observations

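Of the listed genes, 8 have a neighbour on the opposite strand whose start lies within 1000 bases of theirs. Faap24, a DNA repair gene whose start lies 199 bases from that of Cep89, fell at KO day 4, with a mean of 3.44 CPM at KO day 4, 5.56 CPM at KO day 3 and 7.23 CPM in controls (log2 fold change at KO day 4 -1.06, SE 0.31, adjusted p = 0.034, edgeR). Rbm12b2, 581 bases from Tmem67, averaged 2.97 CPM at KO day 4, 4.35 CPM at KO day 3 and 4.55 CPM in controls (log2 fold change at KO day 4 -0.54, SE 0.72, adjusted p = 0.62, edgeR), while Tmem67 averaged 0.265 CPM at KO day 4, 0.244 CPM at KO day 3 and 2.44 CPM in controls. Rbm12b2 and Tmem67 share 289 exonic bases, and the strand setting of the counting is not given. Fto, an RNA demethylase gene 263 bases from Rpgrip1l, averaged 30 CPM at KO day 4, 22.1 CPM at KO day 3 and 29.6 CPM in controls. Its log2 fold change at KO day 4 was 0.01, and those of Trappc2 (by Ofd1) and Sfxn2 (by Arl3) were 0.73 and 0.8. Tmtc3 (by Cep290) was at -0.3 and D3Ertd751e (by Sclt1) at -0.39, and Entpd1 (by Tctn3) was not tested. Only Faap24 was called at KO day 4, against 11.5% of all tested genes called lower and 11.1% called higher. The difference in response between a member and its neighbour was not tested.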
